A study of Mus musculus with 6 samples.

Results

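Type 17 genes are the cytokine, cytokine receptor and chemokine receptor genes that mark T cells of the interleukin 17 lineage. Here they are Il17a, Il17f, Il21, Il22, Il23r and Ccr6. The 6 genes were chosen by name for this lineage, with their counts in these libraries already known, so the values below describe them and no test is given for the 6 genes themselves. All 6 occur among the 55840 genes of the table, and 4 of them (Il17a, Il21, Il23r and Ccr6) passed the filter on low counts that 14919 genes passed.

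Each library held RNA of Tregs (regulatory T cells of the mouse, a CD4 lineage that depends on the transcription factor Foxp3) taken from spleen and lymph nodes. One genotype was wild type (WT, 3 libraries). The other, labelled Exon2KO (3 libraries), carries the Foxp3 allele that the series title writes with a delta 2 mark, an allele named for the loss of exon 2. Age, sex, strain, treatment, the way the cells were purified and the number of animals per library are not given in the sources used here, so the spread between libraries may be technical in part. Counts are per gene, so the loss of exon 2 itself could not be checked. Columns carry a genotype and a number (2, 6 or 20), and libraries are named here by both, such as WT 20.

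Foxp3 sets the Treg lineage apart from the effector helper lineages, of which type 17 is one, and the signals that induce Tregs and type 17 cells overlap in part. Type 17 T cells secrete IL-17A and IL-17F, which act on epithelium and stroma to draw in neutrophils, and IL-22, which acts on epithelium. They also secrete IL-21, which feeds back on T cells and helps B cells, use the IL-23 receptor to stay in the lineage, and carry CCR6, which follows the chemokine CCL20 to mucosa and inflamed tissue. CCR6 is found on part of the Treg and B cell pools as well.

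The bases just upstream of the transcription start are shown because these genes belong to 1 program. RefSeq promoter entries (build GRCm38.p6) were found for all 6 genes. The 250 bases before the start are printed, 5′ to 3′ on the strand of the gene, for the 5 members other than Il22, which had 1 count in all, and for Ccl20. Capitals mark AGGTCA, a half-site that many nuclear receptors recognise, on either strand (it reads TGACCT where it lies on the opposite strand), and the STAT motif TTCNNNGAA, which reads the same on both strands. Matches of the motifs did not overlap in these windows. For Il17a the window is chr1:20730655-20730904 on the plus strand, for Il17f chr1:20784271-20784520 on the minus strand and for Il23r chr6:67491856-67492105 on the minus strand. For Ccr6 it is chr17:8235793-8236042 on the plus strand, the first of 2 listed starts. For Il21 it is chr3:37232637-37232886 on the minus strand. For Ccl20, the gene of the CCR6 ligand, it is chr1:83116516-83116765 on the plus strand.
Il17a: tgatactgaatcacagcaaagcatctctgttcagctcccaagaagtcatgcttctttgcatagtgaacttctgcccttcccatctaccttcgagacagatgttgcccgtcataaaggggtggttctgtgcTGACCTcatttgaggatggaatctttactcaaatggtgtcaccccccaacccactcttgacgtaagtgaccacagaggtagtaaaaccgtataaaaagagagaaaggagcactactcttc
Il17f: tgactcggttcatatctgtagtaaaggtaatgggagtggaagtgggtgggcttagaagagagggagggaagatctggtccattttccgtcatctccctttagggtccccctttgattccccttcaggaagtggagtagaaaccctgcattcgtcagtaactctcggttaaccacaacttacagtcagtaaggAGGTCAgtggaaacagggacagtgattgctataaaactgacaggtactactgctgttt
Il23r: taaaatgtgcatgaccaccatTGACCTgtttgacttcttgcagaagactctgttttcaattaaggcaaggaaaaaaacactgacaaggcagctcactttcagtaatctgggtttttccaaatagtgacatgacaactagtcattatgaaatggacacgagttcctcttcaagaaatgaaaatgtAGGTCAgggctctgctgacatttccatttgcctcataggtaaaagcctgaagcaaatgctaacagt
Ccr6: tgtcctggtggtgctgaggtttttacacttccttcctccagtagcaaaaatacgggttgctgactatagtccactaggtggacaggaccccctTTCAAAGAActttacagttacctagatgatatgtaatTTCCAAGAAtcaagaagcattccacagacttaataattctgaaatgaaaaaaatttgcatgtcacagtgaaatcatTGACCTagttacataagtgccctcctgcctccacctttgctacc
Il21: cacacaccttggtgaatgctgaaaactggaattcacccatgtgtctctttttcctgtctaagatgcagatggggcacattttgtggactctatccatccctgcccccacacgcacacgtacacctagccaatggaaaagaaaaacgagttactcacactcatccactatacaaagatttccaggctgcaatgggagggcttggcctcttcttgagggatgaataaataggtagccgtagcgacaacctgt
Ccl20: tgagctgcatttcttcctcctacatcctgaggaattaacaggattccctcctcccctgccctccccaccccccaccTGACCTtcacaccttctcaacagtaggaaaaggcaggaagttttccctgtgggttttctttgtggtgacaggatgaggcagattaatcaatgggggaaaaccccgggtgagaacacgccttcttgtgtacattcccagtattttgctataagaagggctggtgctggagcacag

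The AGGTCA half-site occurred in the window of 4 of the 6 genes. It lay 120 to 115 bases before the start of Il17a, 58 to 53 before that of Il17f, and both 229 to 224 and 66 to 61 before that of Il23r. In Ccr6 it lay 44 to 39 bases before the first start, after 2 STAT motifs at 157 to 149 and 120 to 112, and the second start had neither motif. Ccl20 had the half-site 174 to 169 bases before its start. The windows of Il21 and Il22 held neither set of letters. Of all 32851 promoter entries, 14% held the half-site and 7.02% the STAT motif in the same 250 bases. A match is a description of letters, not of binding.

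Levels are given in CPM, counts per 1000000 on library sizes scaled by TMM, a method that sets the bulk of the genes equal between libraries. Total counts ran from 17998216 to 21003496 per library. A count of 3, taken as the floor of detection, corresponds to 0.141 to 0.169 CPM, and this floor covers counting error only. Il22 lay at or under it in 6 of 6 libraries, Il17a in 3 (the WT libraries), Il17f and Il23r in 2 each, and Il21 and Ccr6 in 0 of 6. Cell identity was checked by markers. The 7 Treg and CD4 markers (Foxp3, Il2ra, Ctla4, Ikzf2, Tnfrsf18, Cd4 and Cd3e) summed to between 2838 and 3639 CPM in every library, although 3 of them, Il2ra, Ctla4 and Ikzf2, fell in Exon2KO. Tnfrsf18 was called lower only with the column number as a replicate block (log2 fold change -0.73, edgeR adjusted p = 0.000209; 0.0585 without it). Foxp3 itself stood at 711 ± 96.3 CPM in WT and 811 ± 121 CPM in Exon2KO (mean ± SD, n = 3 per genotype).

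Il17a, the gene of the signature cytokine (ENSMUSG00000025929, chromosome 1, 20730905 to 20734496, plus strand, mm10), was at or under the floor in each WT library and above it in each Exon2KO library. Libraries WT 2, 6 and 20 held 0, 0 and 1 counts, and libraries Exon2KO 2, 6 and 20 held 14, 16 and 11. The groups did not overlap, and the 3 Exon2KO libraries differed from each other by 1.33-fold at most. The level was 0.0156 ± 0.0270 CPM in WT, under the floor, and 0.738 ± 0.106 CPM in Exon2KO (mean ± SD, n = 3 per genotype). With 1 count in WT against 41 in Exon2KO, the ratio of the summed levels was 43.1, with an exact 95% interval of 7.31 to 1743 that covers counting error only. The fitted log2 fold change was 4.98 (SE 0.85), and it became 2.79 with a prior count of 2 in place of the smaller default of edgeR. It was 6.78 without WT 20, the library that held the single WT count, and 4.55 without WT 2.

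Il17f lies beside Il17a (ENSMUSG00000041872, chromosome 1, 20777146 to 20790617, minus strand, mm10) and encodes the cytokine that pairs with IL-17A. Libraries WT 2, 6 and 20 held 4, 0 and 11 counts, and libraries Exon2KO 2, 6 and 20 held 6, 3 and 5. The groups overlapped, and the highest and the lowest library were both WT. Mean levels were 0.243 ± 0.259 CPM in WT and 0.256 ± 0.0922 CPM in Exon2KO (mean ± SD, n = 3 per genotype). Il17f did not pass the filter on low counts; in the fit without a filter its log2 fold change was 0.029 (SE 0.94). The sign followed single libraries, from -0.53 without WT 6 to 1.19 without WT 20. The ratio of the summed counts, 15 in WT against 14 in Exon2KO, had an exact 95% interval of 0.439 to 2.18, which covers counting error only and leaves out the spread between libraries.

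Il22 (ENSMUSG00000074695, chromosome 10, 118204942 to 118210047, plus strand, mm10) had 1 count in all, in Exon2KO 6. Its close copy Iltifb on the same chromosome had 0, 0 and 2 counts across WT against 0, 2 and 3 across Exon2KO, and reads of the pair can be shared. Both genes lay at or under the floor in all 6 libraries, so no fold is given.

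Il21 (ENSMUSG00000027718, chromosome 3, 37222759 to 37232636, minus strand, mm10), whose product also supports germinal centres, was higher in Exon2KO by an amount that differed widely between libraries. Libraries WT 2, 6 and 20 held 8, 11 and 13 counts, and libraries Exon2KO 2, 6 and 20 held 118, 557 and 25. Every Exon2KO library was above every WT library, but Exon2KO 6 held 78.2% of the Exon2KO level and stood 20.3-fold above Exon2KO 20. Levels were 0.548 ± 0.103 CPM in WT and 12.2 ± 14.4 CPM in Exon2KO (mean ± SD, n = 3 per genotype). Between libraries of the same number, Exon2KO was 15.3-fold, 47.2-fold and 2.31-fold above WT for numbers 2, 6 and 20. The fitted log2 fold change was 4.46 (SE 1.29), and 2.84 without Exon2KO 6. The lncRNA gene Gm12534 on the opposite strand overlaps Il21 and had 0 counts in all libraries.

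Il23r (ENSMUSG00000049093, chromosome 6, 67422932 to 67491855, minus strand, mm10) encodes the specific chain of the IL-23 receptor. Libraries WT 2, 6 and 20 held 8, 2 and 13 counts, and libraries Exon2KO 2, 6 and 20 held 16, 42 and 1. The groups overlapped: Exon2KO 20 was the lowest of the 6 libraries and Exon2KO 6 the highest. Exon2KO was 2.07-fold above WT for number 2 and 19.6-fold above for number 6, while WT was 10.8-fold above Exon2KO for number 20; the values of 1 and 2 counts behind the last 2 ratios are under the floor. Mean levels were 0.383 ± 0.253 CPM in WT and 1.03 ± 1.06 CPM in Exon2KO (mean ± SD, n = 3 per genotype). The fitted log2 fold change of 1.41 (SE 0.98) was 0.27 without Exon2KO 6, 1.95 without Exon2KO 20 and -0.14 without both libraries numbered 6.

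Ccr6 (ENSMUSG00000040899, chromosome 17, 8236043 to 8257141, plus strand, mm10) went the other way. Libraries WT 2, 6 and 20 held 815, 554 and 715 counts, and libraries Exon2KO 2, 6 and 20 held 376, 401 and 177. The lowest WT library, WT 6, lay above the highest Exon2KO library, Exon2KO 2. Levels were 35.9 ± 6.93 CPM in WT and 17.1 ± 6.22 CPM in Exon2KO (mean ± SD, n = 3 per genotype), a log2 fold change of -1.07 (SE 0.29), or a WT level 2.09-fold that of Exon2KO. WT was 2.09-fold, 1.48-fold and 3.37-fold above Exon2KO for numbers 2, 6 and 20. Leaving out single libraries moved the log2 fold change between -1.23 and -0.80, and the 95% interval of the ratio of summed counts, for counting error only, was 0.445 to 0.520. In bulk RNA, fewer cells that carry CCR6 and less Ccr6 RNA per cell cannot be told apart, and the same holds for the higher values of other members.

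**Figure D1:**
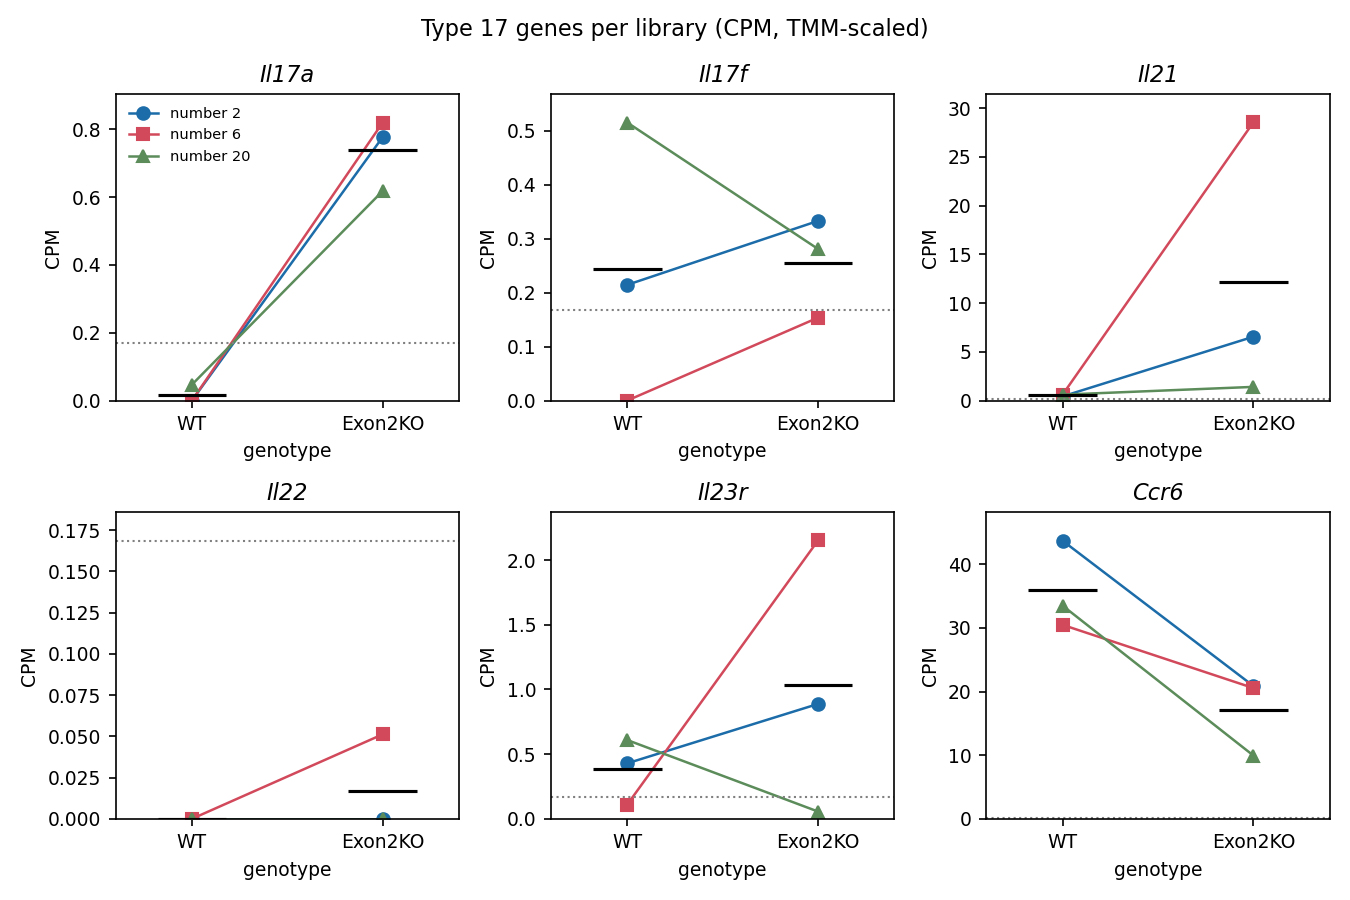
Level of each of the 6 genes per library, in CPM on a linear axis that starts at 0 and differs between panels. Points joined by a line are the WT and Exon2KO libraries of 1 column number, black bars are the means of 3 libraries and the dotted line is the highest floor, 0.169 CPM. Il17a and Il21 are higher in each Exon2KO library, Ccr6 is lower in each, Il23r lines cross, and Il17f and Il22 lie near or under the floor.

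The groups did not overlap for 3 of the 6 genes (Il17a, Il21 and Ccr6). That is 3 of the 4 that passed the filter, beside 17.7% of all tested genes. The 6 genes were chosen with these values known. Il17a and Il21 passed the filter on low counts only through Exon2KO, and Il23r would not have passed it on WT alone. The count is therefore a description, nothing is read from it, and no calls are given for the 6 genes. The authors' deposited table lists log2 fold changes of 5.32 for Il17a, 4.48 for Il21, 1.44 for Il23r, 0.058 for Il17f and -1.06 for Ccr6.

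Levels of different genes were compared in CPM per kilobase, the CPM divided by the gene length that the authors deposited. In WT, Ccr6 stood alone at 15.5 ± 2.99 CPM per kilobase (mean ± SD, n = 3), followed by Il23r (0.154 ± 0.102), Il17f (0.120 ± 0.128) and Il21 (0.104 ± 0.0196), which did not differ beyond their spread. Il17a (0.0133 ± 0.0231) and Il22 (0 in each library) came last. In Exon2KO the order was Ccr6 (7.38 ± 2.68), Il21 (2.31 ± 2.74), Il17a (0.630 ± 0.0908), Il23r (0.415 ± 0.424), Il17f (0.127 ± 0.0456) and Il22 (0.0154 ± 0.0266 CPM per kilobase). Neighbours from Ccr6 down to Il17f overlapped there. Il21 in Exon2KO 6 (5.43) lay above Ccr6 in Exon2KO 20 (4.29). In Exon2KO 20, Il21 (0.267) lay under Il17a (0.528), and Il23r (0.0226) lay under Il17f (0.139). In Exon2KO 6, Il23r (0.865) lay above Il17a (0.700 CPM per kilobase). Among the 14919 tested genes, the mean CPM per kilobase of Ccr6 exceeded 76.1% of genes in WT and 58.6% in Exon2KO, and that of Il21 exceeded 1.12% and 34.8%. Il17a, at 15.7% in Exon2KO, stayed among the low genes even where it was detected.

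Within Exon2KO the order 6, then 2, then 20 held for Il17a, Il21 and Il23r, that is for 3 of the 5 members with more than 3 counts in an Exon2KO library; it held for 20.9% of all tested genes. For Il17a it rests on 16, 14 and 11 counts, too few to rank these libraries. None of these 3 genes had that order within WT. Of the marker sums of other cells, only that of the follicular helper markers had the order 6, 2, 20 within Exon2KO. The 5 CD8 and NK markers summed to 58.1, 28.6 and 31.4 CPM in Exon2KO 6, 2 and 20, against 26.6 to 33.7 CPM in WT. The high sum in Exon2KO 6 was led by Nkg7 (25.7 CPM) and Eomes (22.4 CPM). Cd8b1 was lowest in Exon2KO 6 (7.17 CPM against 8.80 to 12.3 CPM in the other libraries). Klrb1c (2.20 CPM) and Cd8a (0.666 CPM) in Exon2KO 6 lay within the range of the other libraries. The 6 follicular helper markers summed to 286, 218 and 170 CPM in Exon2KO 6, 2 and 20, against 241 to 272 CPM in WT. Each of the 6 had that order. In Exon2KO 6, 2 and 20, Pdcd1 stood at 82.4, 61.8 and 49.9 CPM and Cxcr5 at 56.5, 41.2 and 23.8 CPM. In the same libraries Bcl6 stood at 50.7, 35.8 and 34.4 CPM and Tox2 at 40.6, 26.1 and 15.1 CPM. None of Pdcd1, Cxcr5, Bcl6 and Tox2 was called with or without the block. Il4, too low to be tested, had 24, 42 and 5 counts in Exon2KO 2, 6 and 20 and 8 in each WT library. Sh2d1a was called lower with the replicate block alone (log2 fold change -0.37, edgeR adjusted p = 0.00554, and 0.111 without it). The part of CD8, NK and follicular helper cells in the Il21 and Il23r values was not tested.

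Other cells that make IL-17A or carry CCR6 were looked for by their markers. The 8 gamma delta T cell markers summed to 11.0 to 16.9 CPM in WT and 14.7 to 16.2 CPM in Exon2KO, with 0 of 5 tested markers called and 0 of 8 at 0 counts in all libraries. Among them Tcrg-V6, the receptor segment typical of IL-17-producing gamma delta cells, had 2, 0 and 1 counts across WT against 2, 4 and 8 across Exon2KO, and Sox13 had 1, 3 and 0 counts across WT against 6, 6 and 3 across Exon2KO. Summed over the 3 libraries of a genotype, the others were at 252 counts in WT against 282 in Exon2KO for Trdc, 292 against 290 for Tcrg-C1, 156 against 123 for Tcrg-C2, 73 against 82 for Blk, 45 against 43 for Cd163l1 and 4 against 3 for Zbtb16. Kit and Ncr1, for innate lymphoid cells, summed to 2.52 to 4.12 CPM in WT and 2.66 to 6.77 CPM in Exon2KO. The 6 B cell markers, whose cells also carry CCR6, summed to 31.6 to 32.2 CPM in WT and 25.2 to 27.5 CPM in Exon2KO, with 0 of 5 tested markers called without the block. The largest part of that sum was Cd79b, at 427, 388 and 437 counts across WT against 305, 273 and 259 across Exon2KO, without overlap. Its log2 fold change was -0.51 (adjusted p = 0.0828 in edgeR), and with the column number as a replicate block it was called lower (-0.51, adjusted p = 0.00501). Myeloid markers summed to 29.5 to 44.1 CPM in WT and 24.5 to 40.8 CPM in Exon2KO, and of these Lyz2 was called lower with the block alone (log2 fold change -0.40, edgeR adjusted p = 0.0413; 0.865 without it). The part of these cells in the Il17a and Ccr6 values was not tested.

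The rest of the pathway was followed in a list of 61 genes in 7 roles, of which 60 were in the table and 47 passed the filter. In the edgeR quasi-likelihood fit over all genes, 4 of the 47 were called higher and 3 lower at an adjusted p under 0.05. Of all tested genes 2.33% were called, 0.757% higher and 1.58% lower. With the column number as a replicate block 8 of the 47 were called higher and 9 lower, beside 9.72% of all tested genes (3.93% higher and 5.79% lower). The median log2 fold change of the 47 was -0.0014, with 23 positive and 24 negative, beside 0.0084 over all tested genes. Calls for genes of large and small change were lost without single libraries: the count of 7 became 1 (Ccl20) without WT 2 or Exon2KO 2, and 4 without WT 6 or Exon2KO 6. On all 6 libraries limma-voom called 4, losing Il1r1 (adjusted p = 0.0514), Batf (0.0621) and Gata3 (0.0606), and edgeR without robust estimation called 5, losing Batf (0.0600) and Gata3 (0.0594). With both libraries numbered 6 left out, edgeR called 0 of the 47, of which 16 had an unadjusted p under 0.05. DESeq2 called 9 on all 6 libraries.

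Among other products of type 17 cells, 1 of 7 tested genes rose and 0 fell. Ccl20 (ENSMUSG00000026166, chromosome 1, 83116766 to 83119167, mm10), the gene of the only known chemokine ligand of CCR6 and a product of type 17 cells themselves, had 5, 5 and 7 counts for WT 2, 6 and 20, against 88, 100 and 42 for the Exon2KO libraries of those numbers. Every Exon2KO library was above every WT library. Its level rose from 0.290 ± 0.0327 to 4.12 ± 1.53 CPM (mean ± SD, n = 3 per genotype), with log2 fold change 3.79 ± 0.42 (SE; adjusted p = 0.00254 in edgeR). Ccl20, like Il17a, passed the filter on low counts only through Exon2KO, so its call is not independent of the filter. The call held without a filter and in each fit that left out 1 library, and was lost with both libraries numbered 6 left out (3.56, adjusted p = 0.0721). The ligand gene was higher in the same libraries in which its receptor gene Ccr6 was lower. Tmem176b, a membrane protein gene expressed in type 17 cells, had a log2 fold change of 0.70 (edgeR adjusted p = 0.151); with the replicate block it was 0.69 and called (adjusted p = 0.0344). Csf2 had at most 6 counts in a library, and Il10 had overlapping groups, with WT at 109, 155 and 307 counts and Exon2KO at 114, 340 and 69.

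Among receptors through which a T cell receives the type 17 stimulus, 2 of 9 rose and 0 fell. Il1r1, the signalling receptor of IL-1, had 18, 11 and 22 counts for WT 2, 6 and 20, against 95, 187 and 61 for the Exon2KO libraries of those numbers, with no overlap between the groups. Its log2 fold change was 2.80 (SE 0.42, edgeR adjusted p = 0.0111). The adjusted p was 0.0514 in limma-voom on all 6 libraries, and in edgeR it rose to 0.0726 without WT 2, 0.0600 without WT 6, 0.0522 without Exon2KO 2 and 0.0932 without both libraries numbered 6. Tgfbr2, the ligand-binding chain of the TGF-beta receptor, rose from 285 ± 9.32 to 395 ± 19.4 CPM (mean ± SD, n = 3 per genotype), with log2 fold change 0.47 ± 0.074 (SE; adjusted p = 0.0125 in edgeR); the adjusted p was 0.0699 without WT 2, 0.0589 without Exon2KO 2 and 0.0513 without Exon2KO 6. Tgfbr1, its signalling partner, had log2 fold change -0.46 ± 0.11 (SE; adjusted p = 0.0854 in edgeR), and -0.46 with the replicate block, where it was called (adjusted p = 8.77e-05). The receptor genes Il6ra, Il6st, Il1rap, Il12rb1, Il21r and Il2rg had log2 fold changes from -0.50 to 0.21 and were not called without the block; with it Il6ra was called (0.21, edgeR adjusted p = 0.0360). None of the 3 tested genes of inducing ligands (Il1b, Tgfb1 and Tgfb3) was called by edgeR without the block, and 0 of them had an unadjusted p under 0.05; with it Tgfb1 was called (log2 fold change -0.20, adjusted p = 0.0482). Il6, Il1a, Il23a and Il12b had at most 10 counts in a library.

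Of the 13 tested signal and transcription factor genes, 0 rose and 1 fell in the edgeR fit without the block, and 2 rose and 4 fell with it. Rora encodes a transcription factor of the nuclear receptor family that takes part in the type 17 program. Libraries WT 2, 6 and 20 held 1273, 989 and 2427 counts, and libraries Exon2KO 2, 6 and 20 held 589, 683 and 765, with no overlap. Its log2 fold change was -1.10 (SE 0.29, edgeR adjusted p = 0.187), and -1.04 (SE 0.14, edgeR adjusted p = 0.00801) with the replicate block, where it was called. Without WT 20, the highest library, it was -0.73 and called (adjusted p = 0.0458). Batf, a factor that opens type 17 loci and is also used by effector Tregs, fell from 78.5 ± 8.77 to 52.5 ± 8.003 CPM (mean ± SD, n = 3 per genotype), with log2 fold change -0.58 (adjusted p = 0.0459 in edgeR). That call was lost in all fits that left out 1 library except the one without Exon2KO 6, with adjusted p up to 0.199 without Exon2KO 2. Stat3, the transducer of IL-6, IL-21 and IL-23 signals, stood at 343 CPM in WT and 358 CPM in Exon2KO (log2 fold change 0.059, edgeR adjusted p = 0.857), within the spread between libraries.

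Of the 5 tested receptor genes for type 17 cytokines, 1 rose and 1 fell without the block, and 1 rose and 2 fell with it. The gene added by the block was Il10rb, the chain that the IL-22 and IL-10 receptors share (log2 fold change -0.27, edgeR adjusted p = 0.0273). Il17rb, which encodes the receptor chain for IL-25 and IL-17B rather than for IL-17A, had 296, 212 and 353 counts for WT 2, 6 and 20, against 80, 71 and 124 for the Exon2KO libraries of those numbers, without overlap. Its level fell from 14.7 ± 2.64 to 5.01 ± 1.74 CPM (mean ± SD, n = 3 per genotype), with log2 fold change -1.55 ± 0.25 (SE; adjusted p = 0.0153 in edgeR); the adjusted p was 0.0903 without WT 2 and 0.0961 without Exon2KO 2. Il17ra, the shared chain that IL-17A and IL-17F need, rose from 263 ± 11.8 to 356 ± 6.35 CPM (mean ± SD, n = 3 per genotype), with log2 fold change 0.44 ± 0.071 (SE; adjusted p = 0.0146 in edgeR). Il17ra, first named after its values were seen, was the single rise in this role. Its edgeR adjusted p was 0.0590 without WT 2, 0.0961 without Exon2KO 2 and 0.0507 without Exon2KO 6. Il17rc, the partner chain of Il17ra, had at most 7 counts in a library.

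**Figure D2:**
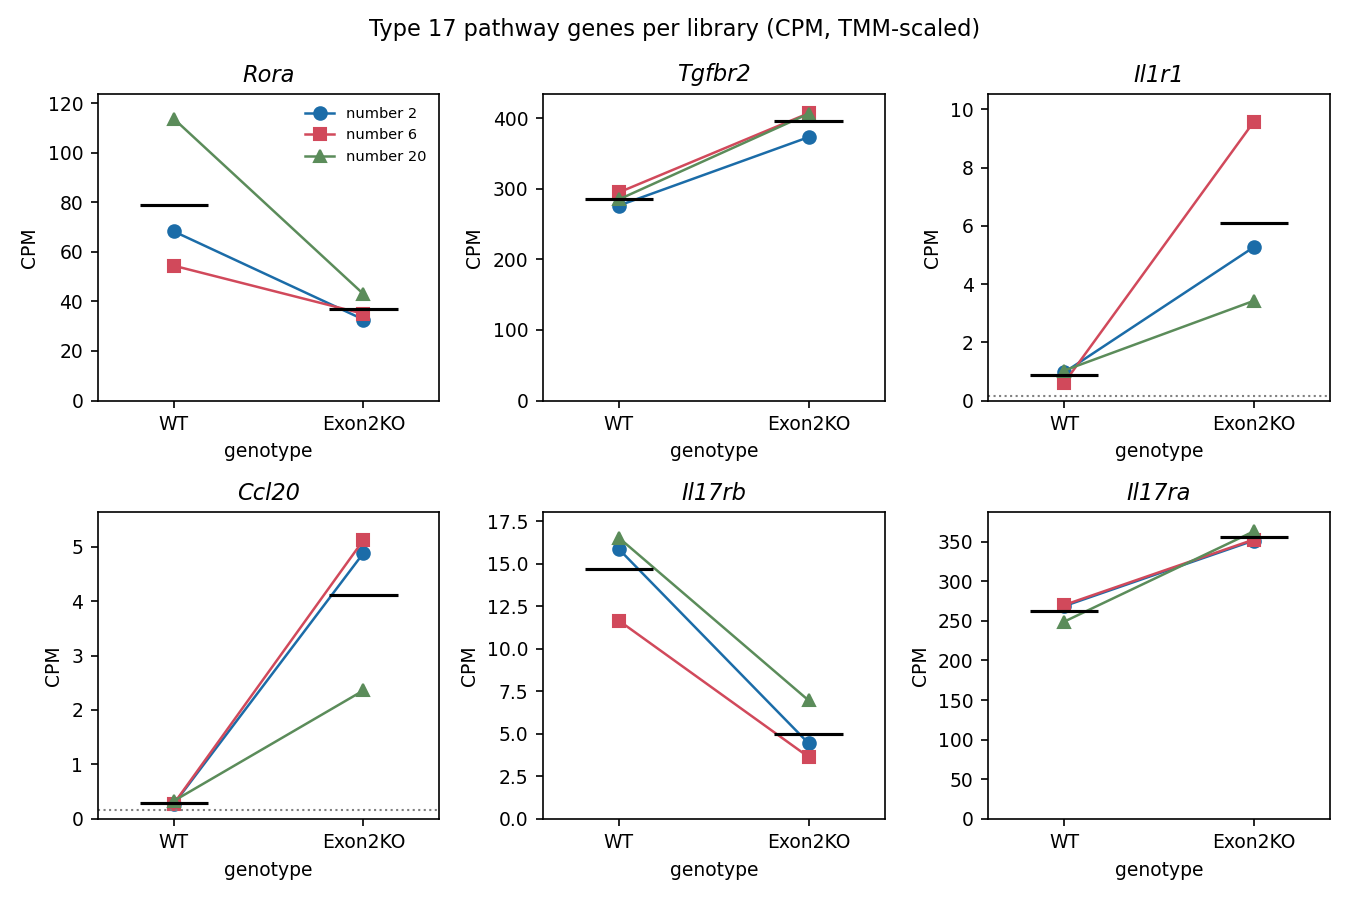
Level of 6 pathway genes per library in CPM, on linear axes that start at 0. Lines join the WT and Exon2KO libraries of 1 column number, black bars are means of 3 libraries, and the dotted line in the Il1r1 and Ccl20 panels is the highest floor, 0.169 CPM. Tgfbr2, Il1r1, Ccl20 and Il17ra are higher, and Rora and Il17rb lower, in each Exon2KO library than in any WT library.

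Of the 9 tested opposing factors, 0 rose and 1 fell. Gata3, which directs the type 2 helper lineage and also supports Tregs, fell from 124 ± 12.2 to 88.8 ± 9.22 CPM (mean ± SD, n = 3 per genotype), with log2 fold change -0.48 (adjusted p = 0.0437 in edgeR), and its call was lost without any single library other than Exon2KO 20, with adjusted p up to 0.199. Foxp3 was not called (log2 fold change 0.19, edgeR adjusted p = 0.693). Tbx21, the factor of type 1 helper cells, had log2 fold change 0.25, and Stat5a and Stat5b, which carry the IL-2 signal that restrains Il17a, had 0.15 and 0.13.

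**Figure D3:**
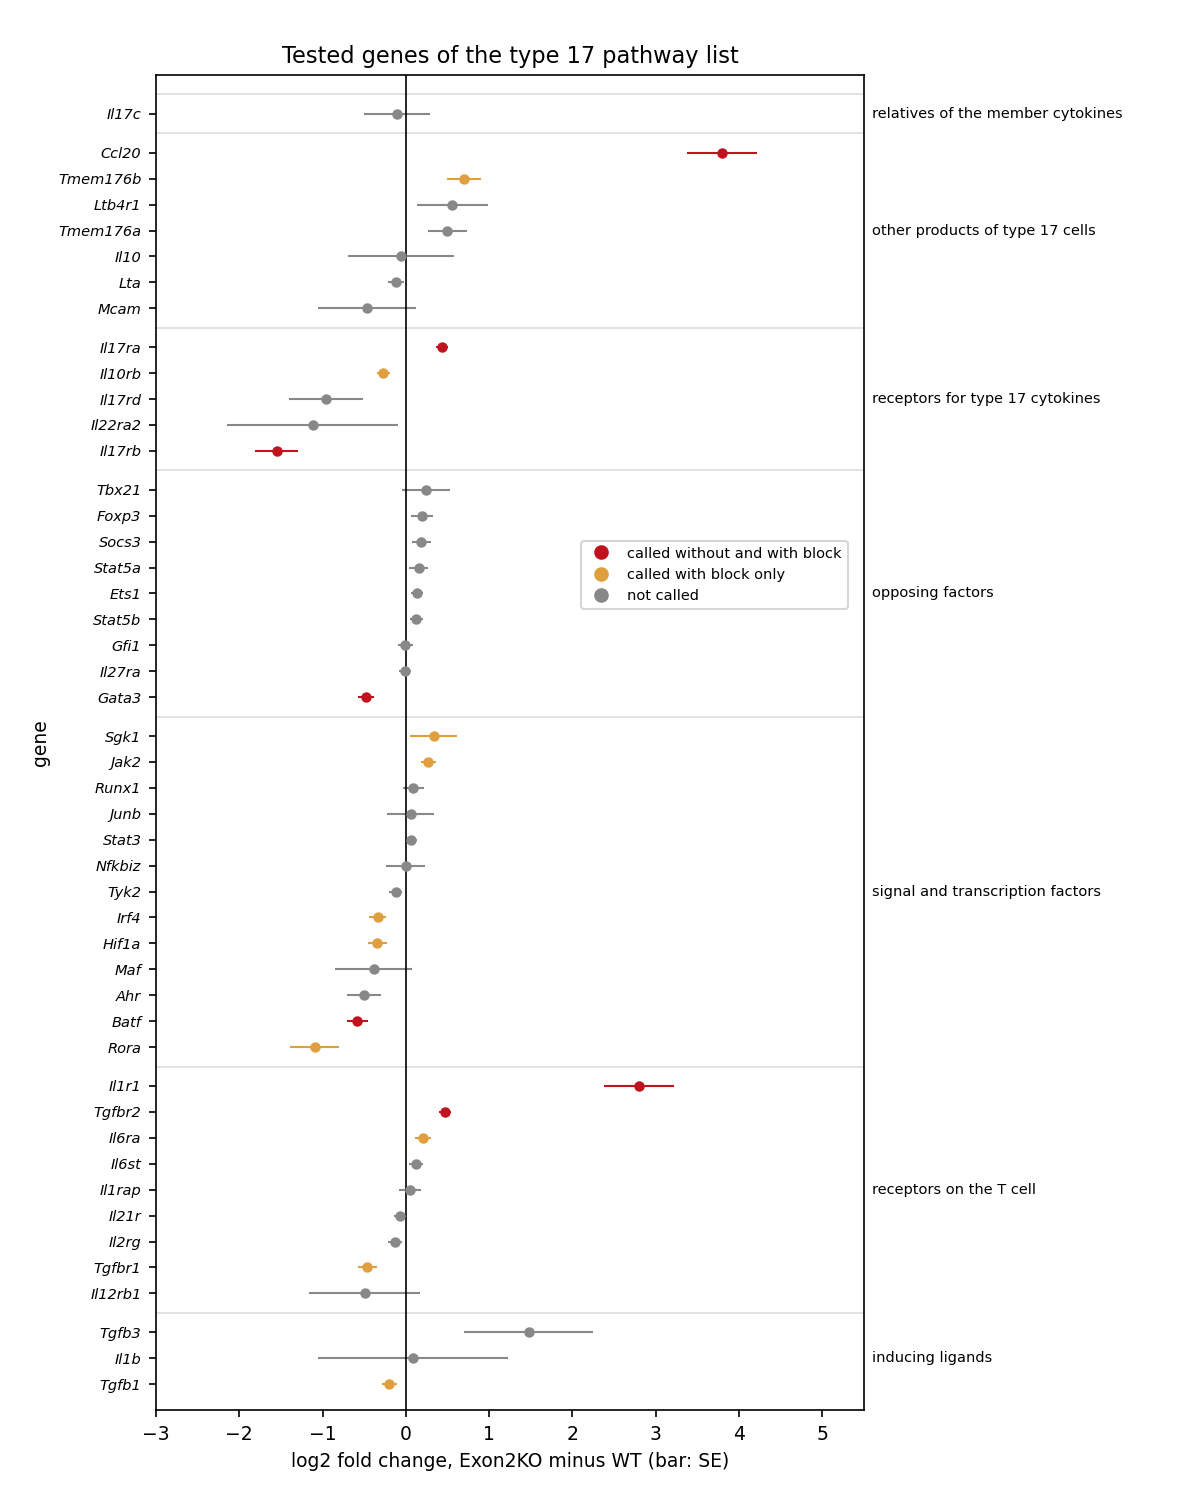
Log2 fold change (Exon2KO minus WT, bar: SE) of the 47 tested genes of the pathway list, grouped by role. Red points were called at an adjusted p under 0.05 without and with the replicate block (7 genes), orange points with the block alone (10 genes), and grey points in neither fit. Ccl20 and Il1r1 lie farthest to the right and Il17rb farthest to the left.

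The genes most like each member were taken by Pearson's r of log2 CPM over the 6 libraries, as a description; among 14919 genes and 6 libraries many reach a high r (110, 49, 14 and 88 genes exceeded 0.95 for Il17a, Il21, Il23r and Ccr6). For Il17a they were an unnamed transcript, Pxylp1 and Mcu (r from 0.995 to 0.996). For Il21 they were Dsp, an unnamed transcript and Map3k2 (r from 0.992 to 0.997), and for Il23r they were Gm15337, Ttf1 and Necap1 (r from 0.988 to 0.993). For Ccr6 they were Myo1c, Meaf6 and I730030J21Rik (r from 0.993 to 0.996). The points share libraries, depth and the genotype split.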

How the data were processed

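RNA of WT and Exon2KO Tregs (3 libraries each) was sequenced on Illumina libraries, per the labels' protocols. The submitters' processing notes name HISAT2 2.0.5, StringTie 1.3.3b, featureCounts 1.5.0-p3, DESeq2 1.16.1 and the build mm10; the strand setting is not given in the sources used here. Deposited counts are whole numbers per gene, per the file headers. The gene lengths that the authors deposited were used only to order levels of different genes, and the 6 per-library FPKM columns were not used. The authors also deposited a comparison: group means as a scaled count signal, log2 fold changes and p-values; only its log2 fold changes are quoted, as the authors'.

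The members, lists, tests and other settings were chosen with earlier results of these data known. Named pathway genes are the 10 with the largest absolute log2 fold change among those called with or without the block, plus Stat3 and Foxp3. Rora and Il17ra are among the 10, and Il17ra was first named after its values were seen. One listed gene is not reported here and is left out of the counts. For each tested member the 3 genes with the highest r (log2 CPM, prior count 2) were named. No p or call is given for members.

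Counts were tested with edgeR 4.0.16 in R 4.3.3 (filterByExpr, TMM, robust quasi-likelihood, two-sided, no covariate), with Benjamini-Hochberg adjustment across the 14919 tested genes. The SE is the absolute log2 fold change divided by the square root of F. Same-numbered columns deviated together from their group means (correlations across genes 0.271, 0.369 and 0.494 for numbers 2, 6 and 20), so the number was taken as pairing the libraries; the pairing comes only from the column names, since title replicate numbers cannot be matched to columns. Blocked values are printed beside the pathway genes and cell markers in the text whose call they change; the remaining pathway genes enter the counts only. Alternatives were other filters, RLE and upper-quartile scaling, DESeq2 1.42.0, limma-voom (limma 3.58.1), no robust estimation, the block and leaving out each library. Added after seeing the data were a prior count of 2 and leaving out both libraries numbered 6 or 20. No pair of libraries of 1 genotype agreed within sampling noise (chi-square per degree of freedom 8.12 to 23.6). The fit was tested on simulated data.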

Additional observations from a re-analysis of the deposited data

How the results depend on the processing

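Fits that left out 1 library gave a log2 fold change of 4.55 to 6.78 for Il17a, -0.53 to 1.19 for Il17f, 2.84 to 4.98 for Il21, 0.27 to 1.95 for Il23r and -1.23 to -0.80 for Ccr6. Il17a also moved to 5.32 with DESeq2, 4.35 with limma-voom, 2.79 with a prior count of 2, 4.48 without both libraries numbered 6 and 6.90 without both numbered 20. Il17f was -0.064 without WT 2, -0.53 without WT 6, -0.20 without Exon2KO 2 and -0.040 without Exon2KO 20, a change of sign in each. Without both libraries numbered 6, Il17f was -0.27, Il21 was 2.91 and Il23r was -0.14; without both numbered 20, Il17f was 1.11. With limma-voom Il17f was 0.79, Il21 was 3.56 and Il23r was 0.70. Without both libraries numbered 20, Il21 was 5.07 and Il23r was 2.46. Taken out of the log, each of these folds lay over 1.5 times from that of the main fit. The remaining settings on all 6 libraries moved Il21, Il23r and Ccr6 by less than that. Requiring 10 counts in every library left Ccr6 alone of the 6 genes.

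The count of 348 called genes was 617 without a filter, 643 with DESeq2, 1450 with the replicate block and 46 without both libraries numbered 6, and between 86 (Exon2KO 2 left out) and 314 (Exon2KO 20 left out) over fits without 1 library; leaving out WT 2, WT 6 and WT 20 gave 131, 156 and 204. The 7 called pathway genes became 4 with limma-voom, 17 with the replicate block and 0 without both libraries numbered 6 (edgeR; 16 with an unadjusted p under 0.05), and 1 to 7 over fits that left out 1 library. The causes were not tested. None of the named pathway genes changed sign in an alternative that was run. Il22 and WT Il17a lay at or under 3 counts in each library, and Il17f and Il23r in 2 of 6 each, which limits their precision.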
